A study of Homo sapiens with 2 samples.

Results

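Wnt feedback and crypt stem genes are genes that Wnt signalling switches on, most of which act back on the pathway or mark the stem cells at the base of intestinal crypts. The 10 genes described are AXIN2, NKD1, LGR5, LGR6, NOTUM, SP5, ASCL2, RNF43, ZNRF3 and APCDD1, of 19775 genes with at least 1 probe set annotated to a single symbol. They were chosen by name, with earlier results of these arrays known, and every probe set annotated to 1 of these symbols alone was taken, which gave 18 probe sets of 41091. Because the choice rests on the same contrast, all values below are a description and none is a test.

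The series holds 2 Affymetrix 3′ expression arrays whose labels name LN229, a long-established line from a human glioblastoma, grown in DMEM with serum. One culture carried pSUPER.neo with an insert for overexpressing miR-127-3p, and the control culture carried pSUPER.neo without it, so both carried the plasmid backbone. The design asked which genes this microRNA regulates in a glioblastoma line. With 1 array per group there is no replicate check, no p-value and no estimate of variation between cultures. The labels do not say whether each culture was a single clone or a pool of transfected cells.

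In the absence of Wnt ligands, a destruction complex built on axin proteins marks beta-catenin for degradation. When ligands engage Frizzled and LRP receptors, beta-catenin is spared, enters the nucleus and activates genes together with TCF/LEF factors. Several genes induced this way restrain the pathway again. AXIN2 is a scaffold of the destruction complex, NKD1 binds Dishevelled, NOTUM is a secreted enzyme that strips the lipid from Wnt ligands, and APCDD1 is a membrane glycoprotein that inhibits Wnt signalling. RNF43 and ZNRF3 are ubiquitin ligases that remove Frizzled receptors from the cell surface, and LGR5 and LGR6 are receptors for R-spondins, which counteract these ligases. SP5 and ASCL2 are transcription factors, SP5 a direct Wnt target and ASCL2 a regulator of intestinal stem cells. MicroRNAs such as miR-127-3p act on transcripts that pair with their seed.

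The overexpressed microRNA is shown first because it is the one designed difference between the cultures. Its mature form lies at chr14:100883035-100883056 on the plus strand (GRCh38.p14, RefSeq), and capitals mark the seed, bases 2 to 8.
hsa-miR-127-3p: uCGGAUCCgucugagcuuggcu

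Promoters are shown because TCF/LEF factors bind a short core sequence before many Wnt target genes. RefSeq promoter windows were at hand for 4 of the 10 genes, with 7 annotated starts in all, and the 250 bases before each start were searched on both strands for CTTTGA and CTTTGT. The other 6 genes, AXIN2, NKD1, LGR5, NOTUM, ASCL2 and ZNRF3, were not searched. SP5, RNF43 and APCDD1 are printed below for the contrast between a window with several cores, one with a single core and one with none. The windows are chr2:170715087-170715336 on the plus strand for SP5, chr17:58417535-58417784 on the minus strand for RNF43 and chr18:10454385-10454634 on the plus strand for APCDD1, all GRCh38.p14. Each is written 5′ to 3′ on the gene's strand, and capitals mark the cores, which on the opposite strand read TCAAAG and ACAAAG.
SP5: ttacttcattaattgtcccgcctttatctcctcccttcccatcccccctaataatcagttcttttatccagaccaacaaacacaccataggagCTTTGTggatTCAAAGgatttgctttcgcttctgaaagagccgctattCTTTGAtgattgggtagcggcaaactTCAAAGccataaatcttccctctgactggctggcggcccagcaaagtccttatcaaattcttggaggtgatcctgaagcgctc
RNF43: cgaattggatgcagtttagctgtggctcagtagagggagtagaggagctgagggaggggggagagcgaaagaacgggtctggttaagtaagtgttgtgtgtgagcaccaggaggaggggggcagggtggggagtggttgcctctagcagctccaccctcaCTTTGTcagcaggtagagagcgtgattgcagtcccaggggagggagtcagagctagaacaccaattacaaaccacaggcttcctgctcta
APCDD1: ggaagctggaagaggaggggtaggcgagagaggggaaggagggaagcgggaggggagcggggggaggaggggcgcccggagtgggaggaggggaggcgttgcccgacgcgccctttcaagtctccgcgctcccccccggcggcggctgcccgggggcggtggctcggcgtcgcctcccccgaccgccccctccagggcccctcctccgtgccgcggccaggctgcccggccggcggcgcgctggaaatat

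SP5 held 3 copies of CTTTGA, beginning 147, 109 and 83 bases before the start, and 1 copy of CTTTGT at 157 bases. At least 3 copies of CTTTGA were present in 23 of 35116 windows of the same length, which is 0.0655%, and at least 1 copy in 11.2%. Both RNF43 starts held 1 copy of CTTTGT, at 90 and at 135 bases, and neither held CTTTGA. At least 1 copy of CTTTGT was present in 13.7% of windows. The 3 starts of LGR6 and the start of APCDD1 held neither core. No core overlapped another. The APCDD1 window was 77.2% G or C and the SP5 window 45.6%. These matches describe the letters of the reference and measure no binding.

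**Figure D1:**
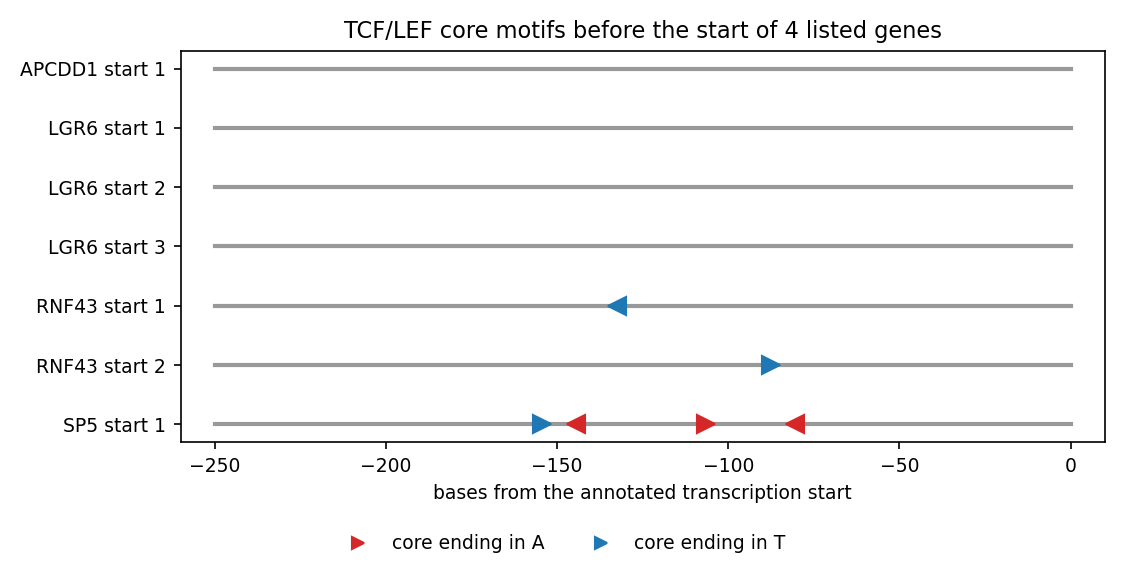
Positions of TCF/LEF core motifs in the 250 bases before 7 annotated starts of 4 genes, on an axis of bases from the start. Arrowheads give the strand of the core relative to the gene, red for the core ending in A and blue for the core ending in T. SP5 holds 4 cores, each RNF43 start holds 1, and LGR6 and APCDD1 hold none.

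Array signals are given in arbitrary units on a linear scale. The median signal over all probe sets other than array controls was 83.3 for miR-127-3p cells and 93.9 for control cells, and a signal under that median is called dim. This is a working floor, not a detection call. The log2 ratio is miR-127-3p minus control after adding 1 to each signal, with the median over genes subtracted. Where only 1 array is dim, the fold is a lower limit against that array's median, and where both are dim no fold is given. Between probe sets of the same gene, the SD of log2 ratios was 0.41, taken over 5974 genes with more than 1 probe set, and this spread measures probe sets and not cultures.

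Markers were read before the genes. Of 12 glial markers, 8 were above the median in miR-127-3p cells and 8 in control cells, among them S100B with 4559 in miR-127-3p cells and 5865 in control cells and PTPRZ1 with 2159 in miR-127-3p cells and 3050 in control cells. GFAP, the astrocyte filament, was dim on both arrays at all 3 of its probe sets. Of 8 glial markers above the filter on mean signal described below, 3 were at least 2-fold lower and none at least 2-fold higher. Over all genes these shares were 8.67% and 5.06%. The 3 were SOX10, SOX2 and NES, all neural progenitor or glial genes, with log2 ratios of -1.65, -1.24 and -1.03. A second NES probe set above the filter had -0.46. Of 12 epithelial markers, 3 were above the median in miR-127-3p cells and 9 in control cells. At their brightest probe sets 11 of 12 were brighter on the control array, beside 51.3% of all probe sets with 1 symbol. Their summed signal was 7716 in miR-127-3p cells and 93433 in control cells. KRT19, DSP and EPCAM were at least 151-fold, 83.6-fold and 110-fold lower in miR-127-3p cells. Of 10 intestinal epithelium markers none was above the median in miR-127-3p cells and 2 were in control cells, namely VIL1, with 45.4 in miR-127-3p cells and 1847 in control cells, and TFF3, with 72.3 in miR-127-3p cells and 807 in control cells. CDX1, CDX2 and KRT20, which define intestinal epithelium, were dim on both arrays. Of 11 measured hepatocyte markers 1 was above the median in miR-127-3p cells and 2 in control cells, these being TF and SERPINA1, while ALB and AFP were dim on both. These markers run along the same pair of arrays as the Wnt genes, and their part in the results below was not tested. Both arrays carry the label LN229, but 6 of the 12 epithelial markers were above the median on the control array alone, beside 4.88% of all genes. The identity of either culture was not tested. The microRNA and any other difference between the cultures therefore cannot be told apart in any value below. In bulk RNA, fewer cells of a type and less RNA per cell cannot be told apart.

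All 10 Wnt feedback and crypt stem genes were dimmer on the miR-127-3p array than on the control array. At the brightest probe set of each gene, 4 of 10, AXIN2, SP5, RNF43 and ZNRF3, were above the array median in miR-127-3p cells, against 10 of 10 in control cells. A signal under the median in miR-127-3p cells and above it in control cells, as for the other 6, was found for 4.88% of all 19775 genes. Counting probe sets, 18 of 18 were brighter on the control array, against 51.3% of all probe sets with 1 symbol. The genes lie on 8 chromosomes, with AXIN2, RNF43 and NOTUM on chromosome 17.

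**Figure D2:**
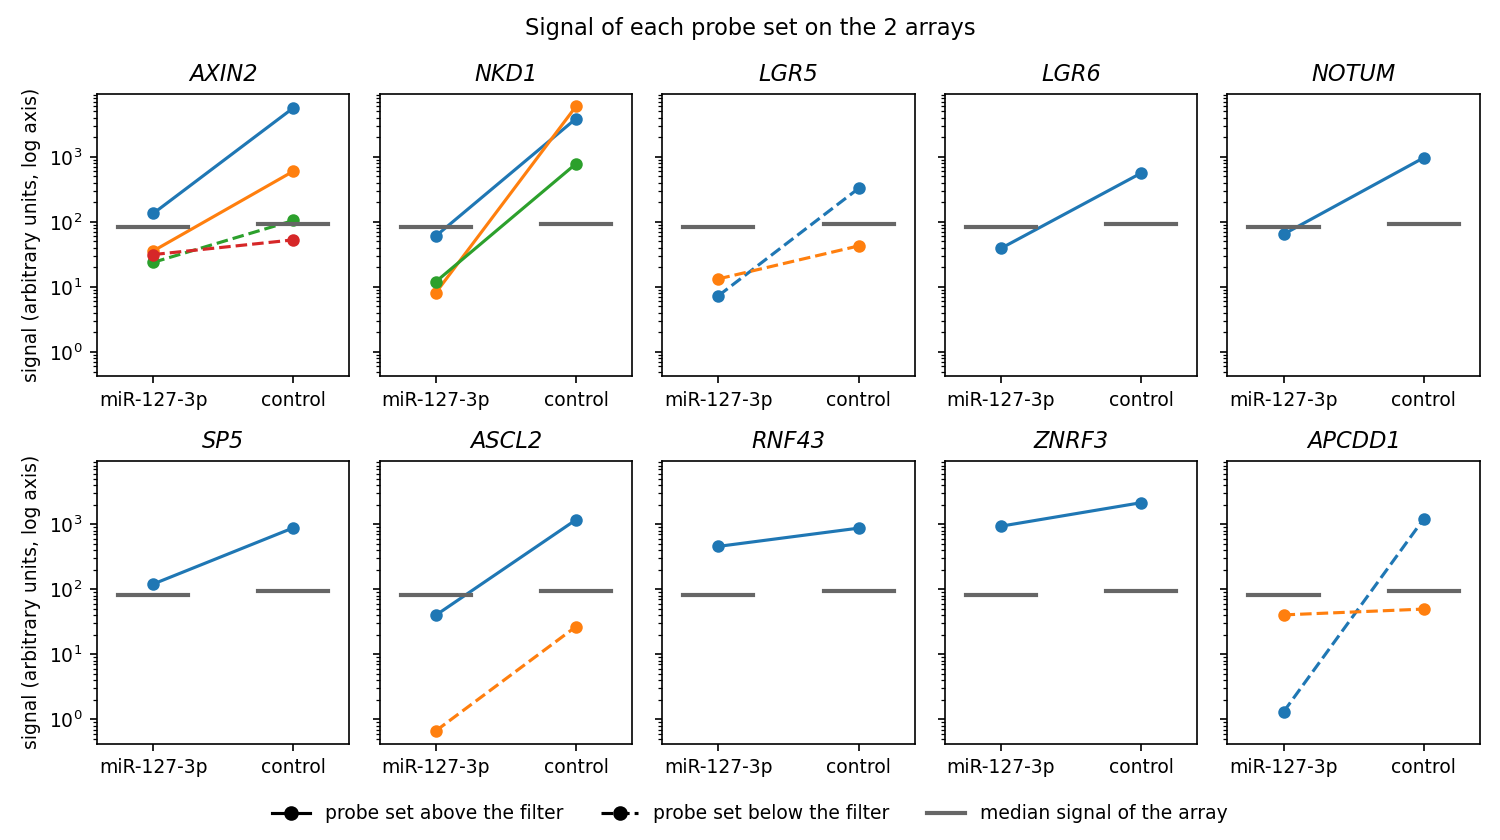
Signal of each of the 18 probe sets of the 10 genes on the miR-127-3p array and the control array, in arbitrary units on a log axis. Each line is 1 probe set, dashed where it is below the filter on mean signal, and grey bars mark the median of each array, 83.3 for miR-127-3p cells and 93.9 for control cells. Every line is higher at the control end, and only RNF43 and ZNRF3 start far above the grey bar on the miR-127-3p array.

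The scaffold gene AXIN2 had 4 probe sets. The brightest gave 135 in miR-127-3p cells and 5688 in control cells, for a log2 ratio of -5.40 or 42.2-fold lower. The second gave 35.8 in miR-127-3p cells and 603 in control cells, at least 7.22-fold lower, and the third gave 23.9 in miR-127-3p cells and 105 in control cells, at least 1.27-fold lower. The fourth, whose suffix marks probes that may match other sequences, was dim on both arrays with 31.4 in miR-127-3p cells and 52.9 in control cells. All 4 pointed the same way, but the log2 ratios of the 2 probe sets above the filter were -5.40 and -4.05. They lay further apart than 0.57, which the probe set spread of 0.41 gives for a difference of 2 ratios. The second of them rests on a dim miR-127-3p signal. AXIN1, the constitutive relative of AXIN2, gave 117 in miR-127-3p cells and 147 in control cells, for a log2 ratio of -0.34. AXIN1 and the other relatives compared below were chosen after values were seen.

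The Dishevelled-binding NKD1 was dim in miR-127-3p cells at all 3 probe sets and bright in control cells at all 3. The signals were 60.7, 8.14 and 12.03 in miR-127-3p cells, against 3879, 5991 and 784 at the same probe sets in control cells. These correspond to at least 46.4-fold, 71.6-fold and 9.39-fold lower in miR-127-3p cells. No probe set of NKD1 carries a cross-match suffix. NKD2, its paralogue, gave 73.8 in miR-127-3p cells and 632 in control cells at its only probe set, at least 7.57-fold lower.

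The inhibitors NOTUM and APCDD1 were dim in miR-127-3p cells at every probe set. NOTUM, the Wnt deacylase, gave 64.5 in miR-127-3p cells and 969 in control cells, at least 11.6-fold lower, from its only probe set. APCDD1 had 1 probe set with 1.31 in miR-127-3p cells and 1212 in control cells, at least 14.5-fold lower, and a second with 40.5 in miR-127-3p cells and 49.8 in control cells, dim on both arrays. The first APCDD1 probe set was below the filter on mean signal because the miR-127-3p signal was near 0. Its log2 ratio of -9.05 rests on that signal, so the lower limit is the firmer value. APCDD1L, a relative of APCDD1, was bright on both arrays with 2128 in miR-127-3p cells and 4049 in control cells, a log2 ratio of -0.94.

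The R-spondin receptors LGR5 and LGR6 were dim in miR-127-3p cells and above the median in control cells at their brightest probe sets. LGR5, the crypt stem cell marker, gave 7.32 in miR-127-3p cells and 327 in control cells at its brighter probe set, at least 3.92-fold lower. Its other probe set was dim on both arrays, with 13.3 in miR-127-3p cells and 42.7 in control cells, and neither passed the filter on mean signal. LGR6 gave 39.2 in miR-127-3p cells and 563 in control cells at its only probe set, at least 6.75-fold lower. LGR4, the third receptor of this family, gave 480 in miR-127-3p cells and 590 in control cells, for a log2 ratio of -0.31, and its 2 other probe sets were dim on both arrays. Of the ligands RSPO1, RSPO2, RSPO3 and RSPO4, none was above the median on either array at its brightest probe set.

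The Frizzled-removing ligases RNF43 and ZNRF3 differed least and were bright on both arrays. RNF43 gave 459 in miR-127-3p cells and 876 in control cells, for a log2 ratio of -0.94, which is 1.92-fold lower. ZNRF3 gave 939 in miR-127-3p cells and 2157 in control cells, a log2 ratio of -1.21, which is 2.32-fold lower. Their ratios differed by 0.27, less than the 0.57 that the probe set spread gives for a difference of 2 ratios. The other 6 genes above the filter had log2 ratios between -5.99 and -2.87. Each ligase had 1 probe set, so no second probe set bears on either value.

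The transcription factor SP5, whose window held the 3 CTTTGA cores shown above, gave 121 in miR-127-3p cells and 887 in control cells at its only probe set. Both signals were above the array medians, and SP5 was 7.33-fold lower, a log2 ratio of -2.87. ASCL2, the intestinal stem cell factor, gave 40.1 in miR-127-3p cells and 1178 in control cells at its brighter probe set, at least 14.1-fold lower. Its other probe set gave 0.668 in miR-127-3p cells and 26.8 in control cells, dim on both arrays. SP1, a broadly expressed relative of SP5, gave 2424 in miR-127-3p cells and 2511 in control cells at its brightest probe set, a log2 ratio of -0.06.

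The filter kept probe sets whose mean log2 signal lay above the median of all probe sets, and 8 of the 10 genes and 11 of the 18 probe sets passed it. LGR5 and APCDD1 did not pass. Of the 8 genes, 7 were at least 2-fold lower in miR-127-3p cells, as were 10 of the 11 probe sets, none was at least 2-fold higher and RNF43 was within 2-fold. Over all 11985 genes that passed, the share at least 2-fold lower was 8.67% and the share at least 2-fold higher 5.06%, and of all probe sets above it 8.08% were at least 2-fold lower. A gene that is dim on 1 array passes the filter only if it is bright on the other, so the 7 of 8 is a description and supports nothing by itself. The median log2 ratio of the 8 genes was -3.86, beside 0 for all genes after centring. Of the 8, 3 were at least 16-fold lower by log2 ratio, AXIN2, NKD1 and ASCL2, as were 0.809% of all genes, and for NKD1 and ASCL2 that ratio rests on a dim signal.

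**Figure D3:**
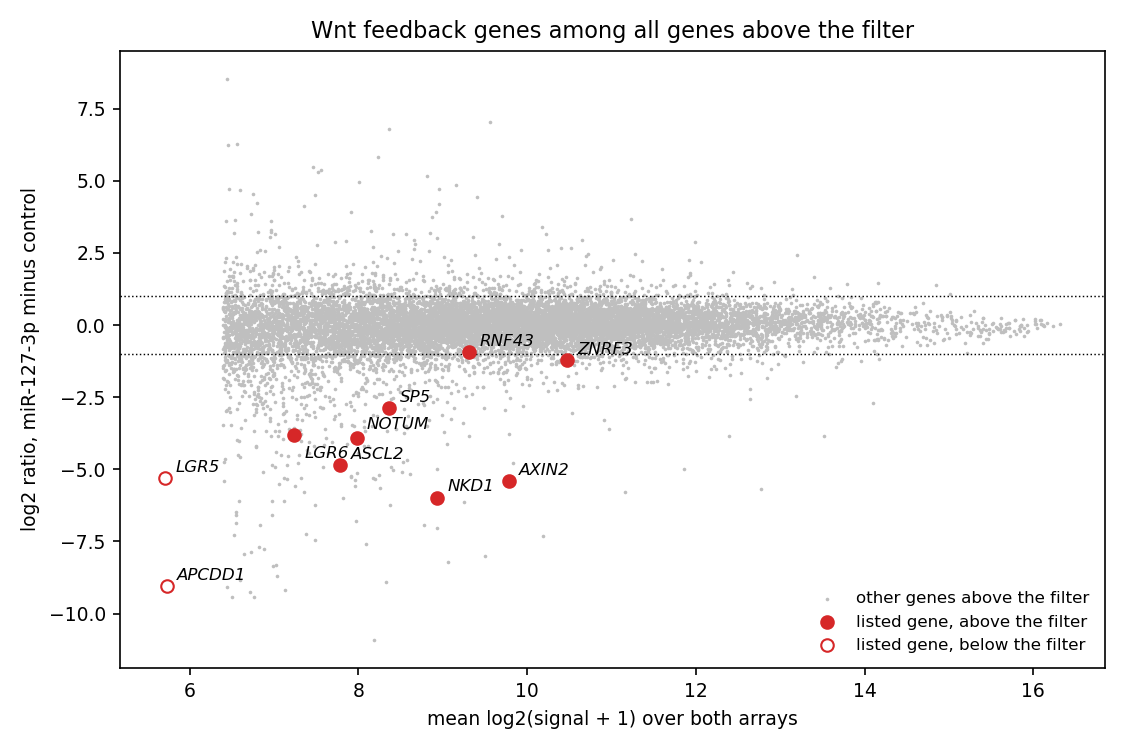
Log2 ratio of miR-127-3p minus control against the mean log2(signal + 1) over both arrays, for 11985 genes above the filter (grey) and the 10 genes (red, open where below the filter). Dotted lines mark 2-fold. RNF43 and ZNRF3 lie at the lower dotted line at -0.94 and -1.21, and the other 8 genes lie at -2.87 or below.

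Core components of the pathway were for the most part within 2-fold. The core list, from ligand secretion to the nuclear factors, had 37 measured genes, of which 34 were above the filter, 5 at least 2-fold lower and none at least 2-fold higher at its brightest probe set. For comparison, 8.67% of all 11985 genes past the filter were lower by 2-fold or more, and 5.06% were higher by that much. The median log2 ratio of the core list was -0.21. WLS, which carries Wnt ligands to the cell surface and was named after its values were seen, had log2 ratios of 0.83, 1.10 and 1.22 at its 3 probe sets, the brightest being the lowest of these. Among the lower genes, TLE3, a corepressor of TCF factors, gave 238 in miR-127-3p cells and 878 in control cells, 3.71-fold lower with all 4 probe sets between -1.89 and -1.06. LRP5, a Wnt co-receptor, gave 24.5 in miR-127-3p cells and 276 in control cells and was at least 3.31-fold lower, and TCF7L1, a mostly repressive TCF factor, gave 106 in miR-127-3p cells and 341 in control cells and was 3.23-fold lower. The remaining 2, named after their values were seen, were TCF7L2 and the co-receptor LRP6. TCF7L2, the main TCF factor of the intestine, gave 2762 in miR-127-3p cells and 7842 in control cells, and its 6 probe sets above the filter lay between -2.46 and -0.99. LRP6 gave 1702 in miR-127-3p cells and 3706 in control cells, a log2 ratio of -1.13. CTNNB1, which encodes beta-catenin, gave 10193 in miR-127-3p cells and 14928 in control cells, for a log2 ratio of -0.56, but its 3 probe sets ranged from -1.11 to 0.04. CTNNB1 was named after its values were seen.

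Other genes known as Wnt targets were mixed. Of 19 measured, 16 were above the filter, 7 at least 2-fold lower and 1 at least 2-fold higher, with a median log2 ratio of -0.60. The shares over all genes were 8.67% lower and 5.06% higher. PROX1, a homeobox factor, gave 167 in miR-127-3p cells and 2387 in control cells, 14.3-fold lower, with its 3 probe sets above the filter between -3.84 and -3.72. BMP4, a ligand, gave 238 in miR-127-3p cells and 3272 in control cells, 13.8-fold lower, and MYC, a growth-promoting factor, gave 578 in miR-127-3p cells and 6931 in control cells, 12.1-fold lower. DKK1, a secreted inhibitor of the pathway that blocks LRP co-receptors, ran the other way, with 5372 in miR-127-3p cells and 1818 in control cells, 2.93-fold higher. CCND1 and CD44, 2 widely used target genes named after their values were seen, had log2 ratios of 0.52 and 0.47.

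Other crypt stem genes gave 7 members above the filter of 12 measured, with a median log2 ratio of -0.96. By log2 ratio 3 were at least 2-fold lower and none at least 2-fold higher, beside 8.67% and 5.06% of all genes. SOX9, a progenitor factor also on the Wnt target list, gave 1616 in miR-127-3p cells and 4981 in control cells, 3.11-fold lower. LRIG1, an ERBB inhibitor, was 2.89-fold lower with 232 in miR-127-3p cells and 669 in control cells, and PROM1, the antigen CD133, gave 62.4 in miR-127-3p cells and 162 in control cells, at least 1.95-fold lower. The probe sets above the filter for SOX9, LRIG1 and PROM1 all carry a cross-match suffix. Without such probe sets 0 of 4 genes of the list were at least 2-fold lower, beside 8.86% of all genes. OLFM4, a crypt stem cell marker, was dim on both arrays with 5.96 in miR-127-3p cells and 1.28 in control cells, and was named after its values were seen.

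**Figure D4:**
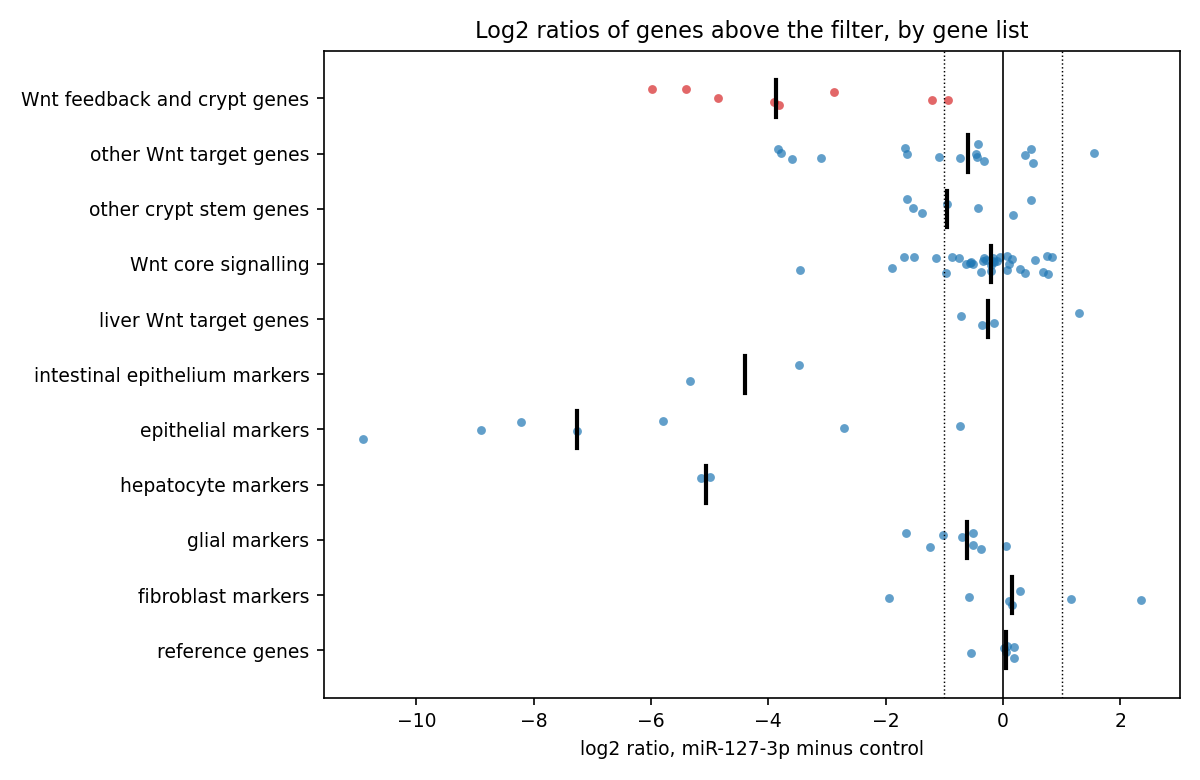
Log2 ratio of miR-127-3p minus control for genes above the filter, 1 point per gene and 1 row per gene list, with a black bar at the list median and dotted lines at 2-fold. The Wnt feedback and crypt genes (red, 8 above the filter) have a median of -3.86, the other Wnt targets -0.60 and Wnt core genes -0.21. Epithelial markers lie lower still, with a median of -7.27. The 6 reference genes have a median of 0.06 and all lie within 2-fold, with HPRT1 lowest at -0.54. Low points that include NKD1, LGR6, NOTUM, ASCL2, KRT19, DSP, EPCAM and ESRP1 are dim on the miR-127-3p array. They passed the filter through a bright control signal, so the list medians rest partly on dim signals and are a description.

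The 3′ to 5′ signal ratio of the GAPDH control probe sets was 0.97 in miR-127-3p cells and 0.98 in control cells, and that of ACTB was 2.95 in miR-127-3p cells and 3.36 in control cells. The log2 ratio was 0.02 for GAPDH and 0.05 for ACTB at their brightest probe sets. All 6 measured reference genes were within 2-fold, and HPRT1, named after its value was seen, was lowest at -0.54.

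Alternative ways of scaling and filtering left every one of the 10 genes with a negative log2 ratio wherever it could be computed. AXIN2 ranged from -5.44 to -4.72, SP5 from -2.91 to -2.59, ZNRF3 from -1.25 to -1.13 and RNF43 from -0.98 to -0.86, so RNF43 stayed within 2-fold and ZNRF3 past it. Among genes dim in miR-127-3p cells, NOTUM ranged from -3.93 to -3.38, LGR6 from -3.85 to -2.75, ASCL2 from -4.89 to -3.82 and NKD1 from -7.09 to -5.41. LGR5 ranged from -5.28 to -3.20 and APCDD1 from -9.08 to -5.23, over the 2 and 4 alternatives that gave them a value.

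**Figure D5:**
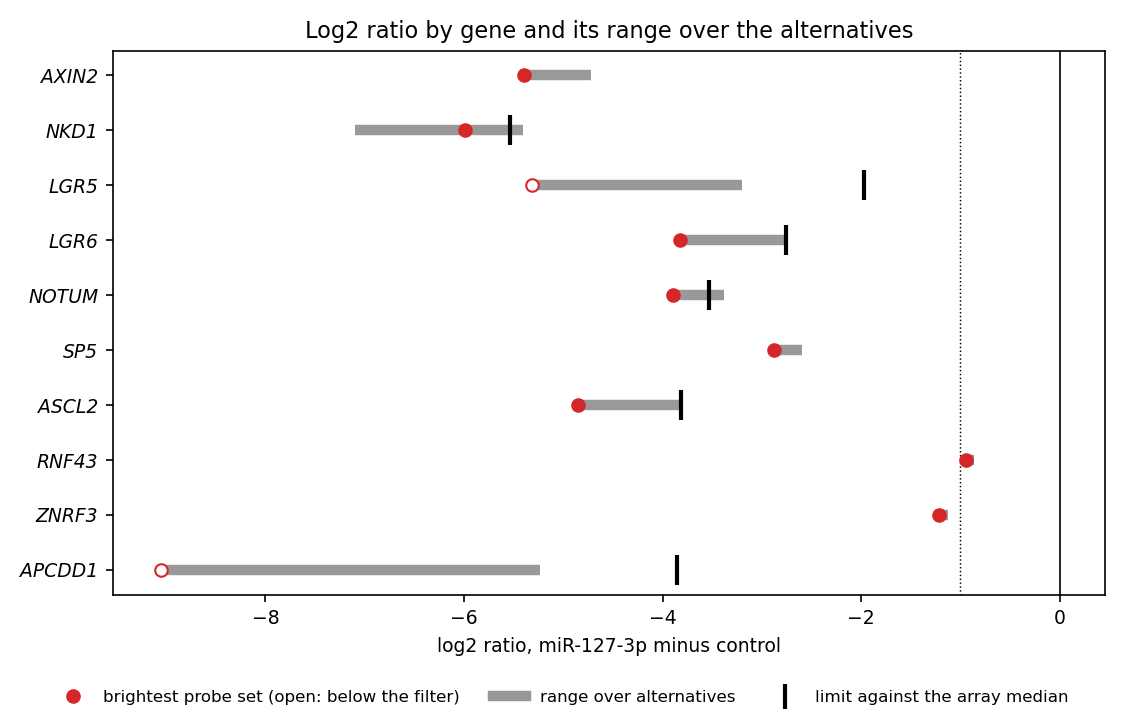
Log2 ratio of miR-127-3p minus control for each gene at its brightest probe set (red point, open where below the filter), with the range over the alternatives as a grey bar and the limit against the array median as a black tick. AXIN2, SP5, RNF43 and ZNRF3, which have no tick, are above the median on both arrays. The limits of LGR5 and APCDD1, at 3.92-fold and 14.5-fold lower, lie far from their log2 ratios.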

How the data were processed

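The authors deposited 1 linear signal intensity per probe set and array. How probes were summarised and corrected for background is not given in the sources used here. The 2% trimmed mean was 500.1 on each array, so the deposited intensities share a scale. Per the labels' protocols, RNA was extracted with Trizol and labelled with a 3′ IVT kit.

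The platform annotation paired 41091 probe sets with 1 symbol, 1801 with several and 11721 with none, and 99.9% of the single symbols matched RefSeq (GRCh38.p14) by Entrez identifier. Ratios were taken on the log2(signal + 1) scale, computed from the deposited intensities. A probe set passed the filter if its mean log2(signal + 1) over both arrays was above the value for a signal of about 83.0. The brightest one stood for its gene. The median ratio over genes, 0.01, was subtracted. No test was possible. Members, gene lists and rules were chosen with earlier results of these data known. All probe sets of the 10 genes are named, and of other lists at most the 3 highest and 3 lowest genes past 2-fold, unless said otherwise. Alternatives were pseudocounts of 16 and 32, 4 other scalings (none, quantile, loess with span 0.3, 75th percentile), 4 other filters, the mean of probe sets, probe sets without a cross-match suffix, a floor at the array median, and thresholds of 1.5-fold and 3-fold. The procedure was run on simulated arrays with changes planted in genes above the filter. That run did not cover the limits for dim signals or variation between cultures. Python 3.11.15, numpy 2.4.6, pandas 2.3.3, statsmodels 0.14.6 and matplotlib 3.10.9 were used.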

Additional observations from a re-analysis of the deposited data

How the results depend on the processing

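The number of arrays, 1 per group, limits every value, and signal over background limits the 6 genes that were dim in miR-127-3p cells. It also bears on AXIN2 and SP5, whose miR-127-3p signals of 135 and 121 were not far above the array median of 83.3. The filter at the 75th percentile left AXIN2, NKD1, RNF43 and ZNRF3, and the filter asking for signals above the median on both arrays left AXIN2, SP5, RNF43 and ZNRF3. Under each, 3 of 4 genes and 3 of 4 probe sets were at least 2-fold lower, the smaller counts following from the fewer genes kept. The median log2 ratio of the probe sets, -4.05, became -3.35 and -2.06 under these filters, -4.48 with a filter asking for a signal past the 75th percentile on either array, -3.38 with a pseudocount of 32 and -3.23 with dim signals set to the array median. Under the other settings, thresholds of 1.5-fold and 3-fold included, the count of genes past the threshold lay between 6 and 9. The share of all genes that were lower past the threshold moved as well, from 8.67% in the main setting. It was 17.2% with no filter, 4.95% with the 75th percentile filter and 6.22% with the filter on both arrays. Past 1.5-fold it was 18.1%, and past 3-fold 3.94%. Wnt core genes at least 2-fold lower numbered 5, and between 3 and 7 over the other settings at that threshold, with 9 past 1.5-fold and 3 past 3-fold. Core genes at least 2-fold higher numbered 0, but 1 with the mean of probe sets or without cross-match suffixes, and 4 were past 1.5-fold. Of all 11985 genes, 1743 were past 1.5-fold higher. Other Wnt targets at least 2-fold lower numbered 7, and between 4 and 8. Other crypt stem genes numbered 3, but 5 with no filter, 0 without cross-match suffixes and 1 past 3-fold. Of 447 values of single genes, lists and the share over all genes, 386 were close to the main value, 61 moved, and 0 of the values past 2-fold reversed. Only log2 ratios of single genes could count as reversed, and some list counts, such as those of the reference genes, were 0 under every setting. These tallies describe the processing of the same 2 arrays and are no check on the values themselves. No paired analysis was possible because each group has 1 array.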

Other observations

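Genes that beta-catenin controls in the liver were also read. Of 10 measured, 4 were above the filter and none was at least 2-fold lower, beside 8.67% of all genes. TBX3, a T-box factor, was 2.45-fold higher, with 4115 in miR-127-3p cells and 1669 in control cells, beside 5.06% of all genes at least 2-fold higher. A pair of further crypt or Wnt genes were below the filter because they were near 0 in miR-127-3p cells, and they were picked after their values were seen. SMOC2, a crypt stem gene, gave 2.99 in miR-127-3p cells and 325 in control cells, at least 3.90-fold lower, and FZD10, a Frizzled receptor, gave 1.17 in miR-127-3p cells and 371 in control cells, at least 4.45-fold lower.

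Fibroblast markers were bright on both arrays for the most part, with 7 of 10 above the median in miR-127-3p cells and 8 in control cells. In miR-127-3p cells POSTN was at least 2.21-fold higher. DCN was 2.22-fold higher at its brightest probe set, but its 4 probe sets above the filter ranged from 0.10 to 1.16 in log2 ratio. COL1A1 was 3.86-fold lower at its brightest probe set, while its 2 other probe sets above the filter had log2 ratios of -0.42 and -0.04. Of the 7 fibroblast markers past the filter, 2 were higher by 2-fold or more and 1 lower, beside 5.06% and 8.67% of all genes. The count of higher markers was 1 with the mean of probe sets and 0 without cross-match suffixes. That of lower markers was 0 under both.

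The TCF/LEF core CTTTGA was also counted before the starts of all genes above the filter that had a promoter window. Of 68 genes with at least 2 copies in a window, 7 were at least 2-fold lower in miR-127-3p cells, which is 10.3%. Of 980 genes with 1 copy it was 10.8%, and of 8771 genes with none it was 7.87%. SP5, with 3 copies, was 1 of the 7. The shares at least 2-fold higher were 8.82% with at least 2 copies, 4.49% with 1 copy and 4.78% with none. The median log2 ratio was 0.04, 0.03 and 0.01 in the same order, so no lower median went with more copies. These shares are a description of 2 arrays.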
